A study of Mus musculus with 6 samples.

Results

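Pnp and Pnp2, which encode purine nucleoside phosphorylases, were examined together with Hprt, Aprt, Ada and Adk, the other core genes of purine salvage, in MA-10 cells and in STARKO1 cells. The 6 genes were taken by their symbols from a table of 14774 genes, and all 6 passed the filter on low counts that left 11939 genes for the fit. Pnp2 passed only through the STARKO1 libraries, as it had at most 5.95 counts in any MA-10 library. Pnp2 had 0.274 ± 0.0768 CPM in MA-10 and 8.75 ± 0.808 CPM in STARKO1 cells (mean ± SD, n = 3 per line), where CPM is the count scaled to library size. Pnp had 67.6 ± 4.46 CPM in MA-10 and 233 ± 21.8 CPM in STARKO1 cells (mean ± SD, n = 3 per line). The levels of Hprt, Aprt, Ada and Adk overlapped between the cell lines. The genes were singled out with their values in this same comparison known, so their differences between the lines are given as a description. Calls from the fit over all genes are printed for them, and nothing is read from these calls.

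MA-10 is a mouse tumor Leydig cell line, and its 3 libraries carried the wild type genotype. STARKO1 is a STAR KO line derived from MA-10 with CRISPR/Cas9, with gRNAs against exon 2 of Star, and its 3 libraries all came from this 1 clone, which was grown from a single cell. A difference between the lines therefore cannot be told apart from a difference between this clone and its parent population. Both lines were untreated, and total RNA was sequenced from libraries made with a stranded kit. In these libraries, fewer cells that express a gene and less RNA of that gene per cell cannot be told apart.

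Purine salvage returns bases and nucleosides to the nucleotide pool, which spares the cell the costly synthesis of the purine ring. Purine nucleoside phosphorylase splits inosine and guanosine into hypoxanthine and guanine, and HPRT joins these bases to phosphoribosyl pyrophosphate to give IMP and GMP. APRT does the same for adenine, adenosine deaminase (ADA) turns adenosine into inosine, and adenosine kinase (ADK) turns it directly into AMP. Loss of PNP or ADA in humans causes severe immunodeficiency, and loss of HPRT causes Lesch-Nyhan syndrome.

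Pnp and Pnp2 are near-identical neighbors, so the sequence that separates them also sets how well their reads can be told apart. In mouse build GRCm38 (mm10), Pnp2 lies at chr14:50955992-50964749 on the plus strand, inside the annotated span of Pnp at chr14:50931082-50965237 on the same strand. The main coding transcripts of Pnp and Pnp2 in the GENCODE vM21 annotation have 6 exons each. Their coding exons 2 to 5 have the same lengths and differ at 5 of 641 bases, an identity of 99.2%. Exon 4, with 176 bases, is identical in both genes. The 3 of these exons that differ are shown here 5′ to 3′ because a read that lies within one of them can be assigned to one gene or the other only where it covers a difference, marked in capitals. Exon 2 has 170 bases and 1 difference (Pnp at chr14:50947852-50948021, Pnp2 at chr14:50959515-50959684). Exon 3 has 104 bases and 2 differences (Pnp at chr14:50950258-50950361, Pnp2 at chr14:50963105-50963208). Exon 5 has 191 bases and 2 differences (Pnp at chr14:50950832-50951022, Pnp2 at chr14:50963679-50963869).
Pnp exon 2: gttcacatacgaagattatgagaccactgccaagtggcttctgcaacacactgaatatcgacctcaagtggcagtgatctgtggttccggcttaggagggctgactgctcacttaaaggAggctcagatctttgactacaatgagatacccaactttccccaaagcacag
Pnp2 exon 2: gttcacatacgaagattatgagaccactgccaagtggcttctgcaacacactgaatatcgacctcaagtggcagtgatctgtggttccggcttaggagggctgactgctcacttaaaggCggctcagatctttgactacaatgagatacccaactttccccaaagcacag
Pnp exon 3: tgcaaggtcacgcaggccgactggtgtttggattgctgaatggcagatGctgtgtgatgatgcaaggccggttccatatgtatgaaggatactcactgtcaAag
Pnp2 exon 3: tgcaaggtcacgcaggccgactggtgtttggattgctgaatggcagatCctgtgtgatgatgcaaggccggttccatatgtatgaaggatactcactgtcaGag
Pnp exon 5: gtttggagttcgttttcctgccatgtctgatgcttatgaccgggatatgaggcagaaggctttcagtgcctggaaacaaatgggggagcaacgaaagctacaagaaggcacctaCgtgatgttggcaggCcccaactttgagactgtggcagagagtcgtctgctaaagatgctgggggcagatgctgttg
Pnp2 exon 5: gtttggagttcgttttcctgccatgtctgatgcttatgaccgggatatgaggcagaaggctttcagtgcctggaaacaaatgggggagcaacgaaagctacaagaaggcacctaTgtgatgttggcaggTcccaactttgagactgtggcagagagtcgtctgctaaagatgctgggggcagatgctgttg

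Of the 1323 windows of 50 bases in the 1372 bases of the Pnp2 transcript, 438 occur unchanged in a transcript of Pnp. Another gene, Gm49342 (chr14:50944517-50963136, plus strand), is annotated across the pair, and 669 of the 701 windows of 50 bases in its transcript occur in a transcript of Pnp. The deposited values are estimated counts, and those of Pnp and Pnp2 were not whole in any library. How the authors' software divided shared reads between these genes is not given in the sources used here, so the level of Pnp2 is uncertain to that extent.

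The libraries held between 14114351 and 19530062 counts. MA-10 replicate 1 stood apart from the other MA-10 libraries, with a Pearson's r of log2 CPM across tested genes of 0.900 and 0.936 with replicates 2 and 3, against 0.964 to 0.967 with the STARKO1 libraries and 0.983 between MA-10 replicates 2 and 3. The 7SL RNA, an abundant noncoding RNA, took 1.81%, 14.4% and 6.63% of the counts across MA-10 replicates 1 to 3 and 1.82% to 2.37% in the STARKO1 libraries. Star, the targeted gene, had 77.2 ± 27.8 CPM in MA-10 and 2.27 ± 0.386 CPM in STARKO1 cells (mean ± SD, n = 3 per line). All 12 Leydig cell markers examined, Star among them, were in the table. Their summed level was 2213 to 2899 CPM in the MA-10 libraries and 1864 to 1952 CPM in the STARKO1 libraries. Star and Hsd3b1 (29.8 ± 6.67 CPM in MA-10, 5.19 ± 0.503 CPM in STARKO1 cells) were lower at an adjusted p under 0.05 in edgeR's quasi-likelihood test. Hsd17b3 was too low to be tested, and the other markers of this list did not pass. Of 7 Sertoli cell markers, the defining genes Sox9, Amh, Fshr and Wt1 were not listed, and Dhh, Rhox5 and Clu together had 689 to 771 CPM in MA-10 and 786 to 821 CPM in STARKO1 cells. Among 4 endothelial markers, Kdr and Tek were not listed and Pecam1 was below 1 CPM in each library, while Cdh5 had 33.8 ± 7.61 CPM in MA-10 and 121 ± 3.01 CPM in STARKO1 cells (mean ± SD, n = 3 per line). The markers that were listed for germ cells (1 of 5), macrophages and leukocytes (2 of 5) and peritubular cells (1 of 4) summed to at most 3.55, 9.85 and 0.969 CPM in any library. Any link between the level of Cdh5 and those of the salvage genes was not tested.

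Of the 6 salvage genes, 2 had an adjusted p under 0.05 in edgeR's quasi-likelihood test, where 9.04% of all tested genes did. Both were higher in STARKO1 cells, as were 4.3% of all tested genes, while 4.74% were lower. The same 2 genes were the only ones of the 6 without overlap between the lines, a property of 42.5% of all tested genes (21.5% with STARKO1 above and 21% with STARKO1 below). Since the genes were chosen on this contrast, nothing is read from these counts.

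Pnp2 had 5.95, 2.19 and 3.32 estimated counts across MA-10 replicates 1 to 3 and 211, 133 and 166 across STARKO1 replicates 1 to 3. These counts corresponded to 0.341, 0.190 and 0.292 CPM in MA-10 and to 9.08, 7.83 and 9.34 CPM in STARKO1 cells. Every STARKO1 library was far above every MA-10 library, and the MA-10 libraries lay near 3 counts, a level equal to 0.264 CPM or less in the MA-10 libraries and to 0.177 CPM or less in the STARKO1 libraries. The log2 fold change of Pnp2 was 4.98 (standard error 0.298), or 31.6-fold. Over the pooled libraries, 11 counts in MA-10 cells stood against 510 in STARKO1 cells, a ratio of 32.2. Both are rounded sums of estimated counts and depend on how shared reads were divided. As Pnp2 was chosen on this contrast, the ratio is a description. Leaving out 1 library at a time kept the log2 fold change between 4.78 and 5.36, with the upper value reached without MA-10 replicate 1.

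Pnp, which carried nearly all the estimated counts of the pair, had 1264, 772 and 722 counts across MA-10 replicates 1 to 3 and 5479, 3553 and 4496 across those of STARKO1. Its level was 72.4, 66.9 and 63.6 CPM in MA-10 and 236, 209 and 253 CPM in STARKO1 cells. The lines did not overlap, and MA-10 replicate 1, which differed from replicates 2 and 3 for much of the transcriptome, was close to them for this gene. The log2 fold change of Pnp was 1.78 (standard error 0.166), or 3.44-fold, and it was 1.92 without MA-10 replicate 1. When the counts of Pnp and Pnp2 were summed into 1 row, so that the division of reads between them had no part, the log2 fold change was 1.83 (standard error 0.167), or 3.55-fold. The sum was 67.9 ± 4.49 CPM in MA-10 and 241 ± 22.5 CPM in STARKO1 cells (mean ± SD, n = 3 per line). Adding Gm49342, a sum chosen after the data were seen, left the log2 fold change at 1.83.

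**Figure D1:**
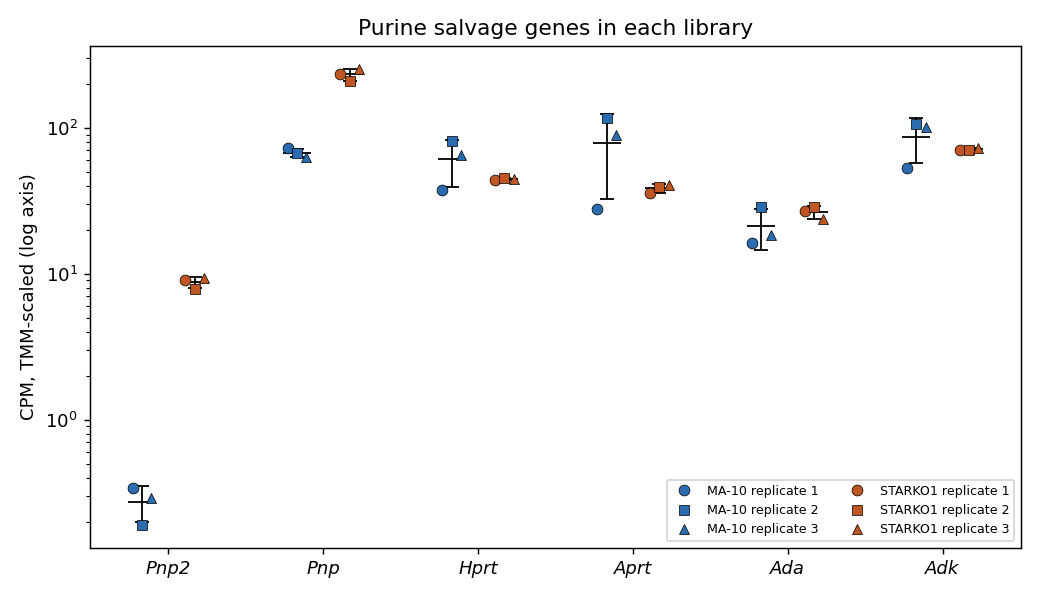
Levels of the 6 purine salvage genes in CPM (log axis) in 3 MA-10 libraries (blue) and 3 STARKO1 libraries (orange), with symbols for replicates 1 to 3, and the mean with its SD in black. Pnp2 and Pnp lie higher in every STARKO1 library, while the other 4 genes overlap, and MA-10 replicate 1 is the lowest library for Hprt, Aprt, Ada and Adk.

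The share of Pnp2 in the estimated counts of the pair is given as a description. Pnp2 made up 0.468% of the counts of Pnp and Pnp2 together in MA-10 replicate 1 (95% Wilson interval 0.217% to 1.03%), 0.284% in replicate 2 (0.0709% to 0.937%) and 0.458% in replicate 3 (0.141% to 1.21%). In STARKO1 replicates 1, 2 and 3 it made up 3.71% (3.25% to 4.23%), 3.60% (3.05% to 4.26%) and 3.56% (3.07% to 4.13%). The intervals were computed on rounded estimated counts, cover counting error only and leave out the uncertain division of shared reads. Since the pair was chosen on this contrast, nothing is read from the gap between the lines. The mean share was 0.403 ± 0.104% in MA-10 cells and 3.63 ± 0.0756% in STARKO1 cells (SD, n = 3 each), so the share was steady among the STARKO1 libraries. Per kilobase of transcript, the level of Pnp was 99.1 to 164 times that of Pnp2 in the MA-10 libraries and 12.1 to 12.6 times that of Pnp2 in the STARKO1 libraries. By these estimated counts Pnp2 was the minor transcript in both lines. Its level in MA-10 cells rests on 2.19 to 5.95 counts per library, and how shared reads were divided is not known. Gm49342, which failed the filter on low counts, had 3.66, 0.116 and 0.693 counts in the MA-10 libraries and 12.4, 14.2 and 5.48 in the STARKO1 libraries.

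**Figure D2:**
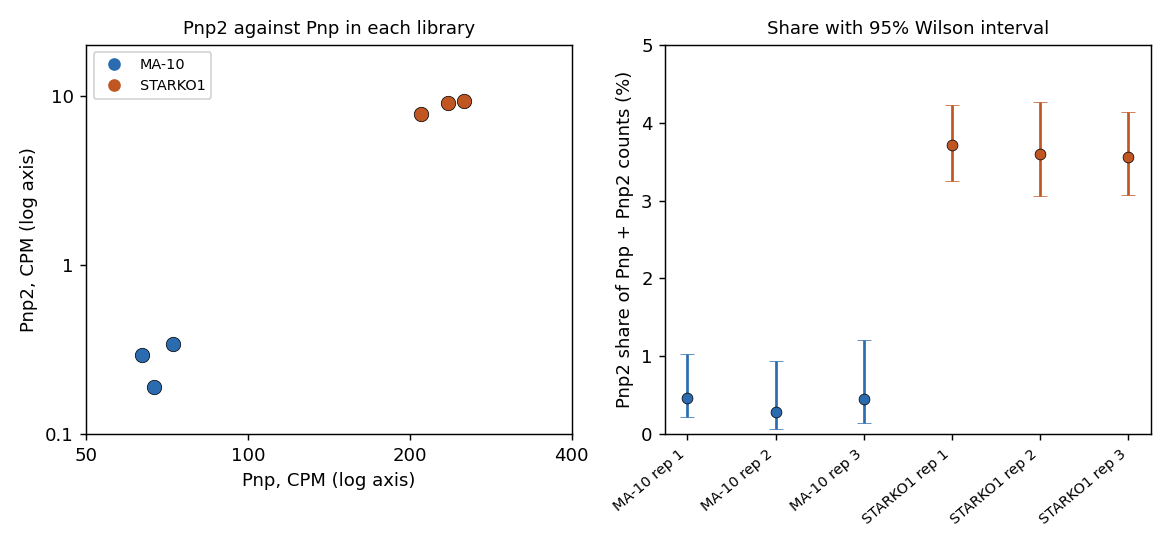
Left, level of Pnp2 against that of Pnp in CPM (both axes log) in each MA-10 (blue) and STARKO1 (orange) library; right, share of Pnp2 in the summed counts of Pnp and Pnp2 in percent, with 95% Wilson intervals for counting error. The share is 0.284% to 0.468% in MA-10 libraries and 3.56% to 3.71% in STARKO1 libraries.

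The salvage phosphoribosyltransferases followed another pattern. Hprt (chrX:52988137-53021659, plus strand), whose product acts on the bases that PNP releases, had 37.7, 81.2 and 65.0 CPM across MA-10 replicates 1 to 3 and 44.0, 45.3 and 44.9 CPM across those of STARKO1. The STARKO1 libraries fell between MA-10 replicate 1 and MA-10 replicates 2 and 3. The log2 fold change of Hprt was -0.45 (standard error 0.277). Aprt (chr8:122574635-122576909, minus strand), which salvages adenine, had 27.7, 118 and 89.9 CPM across the MA-10 replicates and 35.7, 39.6 and 40.3 CPM across those of STARKO1. Here too MA-10 replicate 1 was below the STARKO1 libraries and the other MA-10 libraries were above them. The log2 fold change of Aprt was -1.02 (standard error 0.475).

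The adenosine-handling enzymes also varied among the MA-10 libraries. Ada (chr2:163726584-163750239, minus strand) had 16.4, 28.8 and 18.6 CPM across MA-10 replicates 1 to 3 and 26.8, 28.7 and 23.7 CPM across those of STARKO1. MA-10 replicate 2 was level with the highest STARKO1 library, and the log2 fold change of Ada was 0.31 (standard error 0.242). Adk (chr14:21052574-21448569, plus strand) had 52.7, 106 and 101 CPM across the MA-10 replicates and 71.0, 70.3 and 72.9 CPM across those of STARKO1. The STARKO1 libraries again lay between MA-10 replicate 1 and the others, and the log2 fold change of Adk was -0.28 (standard error 0.273). Adk lies on chromosome 14, as do Pnp and Pnp2, but far outside their neighborhood.

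MA-10 replicate 1 decided on which side of the threshold Hprt, Aprt and Adk fell. Without it, the log2 fold change was -0.62 for Hprt, -1.34 for Aprt, -0.45 for Adk and 0.25 for Ada, and 5 of the 6 salvage genes were under the threshold, all but Ada, where 65.7% of all tested genes then were. Among the MA-10 libraries the share of 7SL RNA was lowest in replicate 1, and its part in these levels was not tested. Scaling by library size alone moved the median log2 fold change of all genes from -0.050 to 0.38, a shift of 0.43. With that scaling the values of Hprt and Adk turned to 0.086 and 0.26, both below the median of all genes, while Pnp2 had 5.40 and Pnp 2.20.

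**Figure D3:**
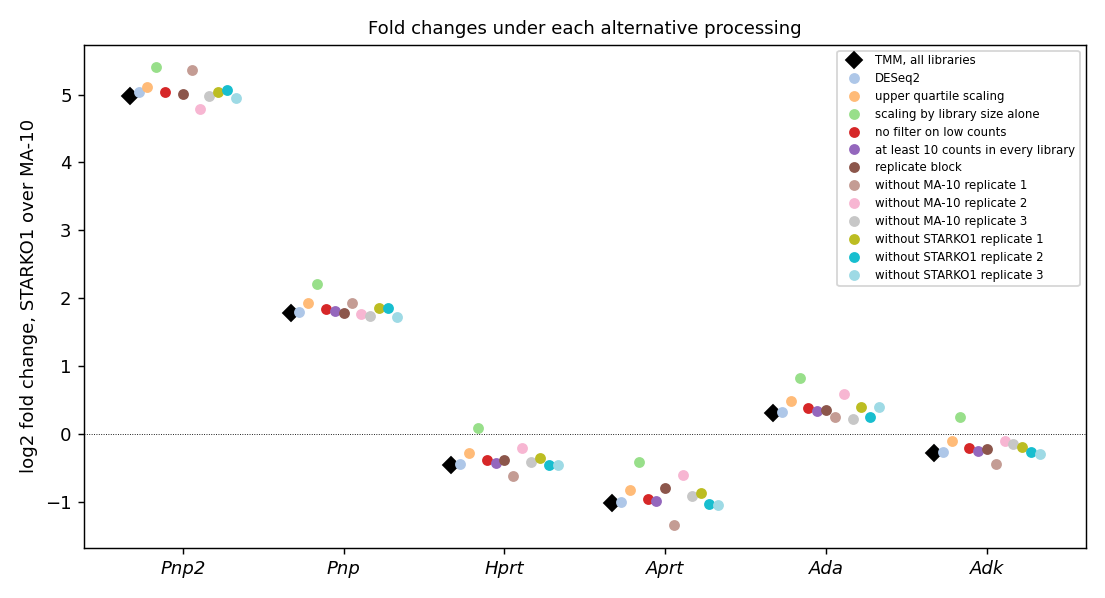
Log2 fold change of each salvage gene, STARKO1 over MA-10, under the TMM scaling of all libraries (black diamond) and under the other scalings, filters and fits and with each library left out (colored points). With their rows kept apart, Pnp2 lies between 4.78 and 5.40 and Pnp between 1.72 and 2.20, while Hprt and Adk turn positive with scaling by library size alone.

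Levels were compared between genes only per kilobase of transcript. In MA-10 cells the mean level was 92.3 ± 54.3 CPM per kilobase for Aprt, 48.6 ± 16.6 for Adk, 47.6 ± 17.03 for Hprt, 23.0 ± 1.52 for Pnp, 12.6 ± 3.92 for Ada and 0.200 ± 0.0559 for Pnp2 (SD, n = 3 each). Aprt, Adk and Hprt did not differ in this order beyond their spread, while each library of Pnp lay below those of Hprt and above those of Ada. In STARKO1 cells Pnp came first with 79.1 ± 7.39 CPM per kilobase, followed by Aprt with 45.4 ± 2.97, Adk with 40.1 ± 0.769, Hprt with 34.7 ± 0.522, Ada with 15.6 ± 1.51 and Pnp2 with 6.38 ± 0.589 (SD, n = 3 each). The libraries of neighboring genes in this second order did not overlap, and Pnp stood behind Aprt, Adk and Hprt in the parent line and ahead of them in the clone. These levels rest on 1 transcript per gene and on the same libraries as the fold changes.

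The genes around the salvage pathway were read from 7 further lists with 97 gene symbols, synonyms among them, of which 70 were in the table and 68 were tested. Of these 68 genes, 3 rose and 3 fell in STARKO1 cells at an adjusted p under 0.05 in edgeR's quasi-likelihood test, or 8.82%, a share near the 9.04% of all tested genes. Their median log2 fold change was 0.053, against -0.050 over all tested genes, and 23 of the 68 had an unadjusted p under 0.05, as did 4493 of all 11939 tested genes. Without MA-10 replicate 1, 40 of the 68 were called, where 65.7% of all tested genes were. The 3 genes that rose were Ampd3, Gart and Nt5c2, and the 3 that fell were Enpp2, Adssl1 and Mtap. Ampd3 and Enpp2 kept their calls under every alternative in which they were tested, while Gart, Nt5c2, Mtap and Adssl1 lost theirs with scaling by library size alone.

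In the other salvage and nucleoside kinase genes, 1 of 7 tested genes fell and 0 rose, where 9.04% of all tested genes were called. The median log2 fold change was 0.0060. Mtap, whose product splits methylthioadenosine in a reaction akin to that of PNP and releases adenine, had 91.5, 222 and 206 CPM across MA-10 replicates 1 to 3 and 65.4, 68.2 and 66.4 CPM across those of STARKO1. All STARKO1 libraries were below the MA-10 libraries, MA-10 replicate 1 being the nearest. For Mtap the log2 fold change was -1.38 (standard error 0.333), and its adjusted p of 0.04999 in edgeR's quasi-likelihood test was just under the threshold. Without MA-10 replicate 1 it was -1.59, and leaving out any other single library ended the call, as did each alternative with all libraries except DESeq2. Dck, the deoxycytidine kinase that also accepts purine deoxynucleosides, had 21.0 ± 4.85 CPM in MA-10 and 21.8 ± 0.809 CPM in STARKO1 cells (mean ± SD, n = 3 per line).

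Among the genes of de novo IMP synthesis, 1 of 11 tested genes rose and 0 fell, where 9.04% of all tested genes were called. The median log2 fold change was 0.35. An unadjusted p under 0.05 was found for 6 of the 11, and for 4493 of all 11939 tested genes. Without overlap, STARKO1 was above for 5 and below for 1, against 21.5% and 21% of all tested genes. Without MA-10 replicate 1, 7 of the 11 were called, where 65.7% of all tested genes were. Gart encodes a trifunctional enzyme of this pathway and had 141, 67.4 and 64.4 CPM across the MA-10 replicates and 261, 278 and 300.4 CPM across those of STARKO1. The lines did not overlap, although MA-10 replicate 1 was over the other MA-10 libraries. For Gart the log2 fold change came to 1.62 (standard error 0.334, adjusted p = 0.0355 in edgeR's quasi-likelihood test). It was 2.18 without MA-10 replicate 1, and Gart kept its call in this 1 of the 6 fits that left out a library. Paics, which encodes another enzyme of the pathway and did not pass, had 230.0 ± 46.1 CPM in MA-10 and 218 ± 4.06 CPM in STARKO1 cells (mean ± SD, n = 3 per line).

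Of the genes for AMP and GMP synthesis and interconversion, 15 were tested. Of these, 1 rose and 1 fell, where 9.04% of all tested genes were called, and the median log2 fold change was 0.039. Ampd3, an AMP deaminase that turns AMP back into IMP, had 3.49, 3.47 and 2.82 CPM across MA-10 replicates 1 to 3 and 19.5, 14.8 and 16.6 CPM across those of STARKO1. The MA-10 libraries were close together and all far below the STARKO1 libraries. For Ampd3 the log2 fold change came to 2.37 (standard error 0.200, adjusted p = 0.00241 in edgeR's quasi-likelihood test), and Ampd3 passed in all 6 fits that left out a library. Adssl1, the muscle type of adenylosuccinate synthase, had 36, 18 and 18 counts across the MA-10 replicates and 6, 5 and 0 across those of STARKO1. It was low in both lines, and its log2 fold change, with few counts behind it, was -3.17 (standard error 0.666, adjusted p = 0.0369 in edgeR's quasi-likelihood test). Adssl1 kept its call in 1 of the 6 fits that left out a library, the fit without MA-10 replicate 1. Impdh2, which commits IMP to GMP synthesis, had 159 ± 26.5 CPM in MA-10 and 159 ± 5.63 CPM in STARKO1 cells (mean ± SD, n = 3 per line).

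In the list of purine breakdown and nucleotidases, 1 of 13 tested genes rose and 0 fell, where 9.04% of all tested genes were called. The median log2 fold change was 0.21. Nt5c2, a cytosolic nucleotidase that turns IMP and GMP into the nucleosides used by PNP, had 13.97, 10.2 and 14.7 CPM across the MA-10 replicates and 23.4, 20.6 and 27.7 CPM across those of STARKO1. The lines did not overlap. For Nt5c2 the log2 fold change came to 0.88 (standard error 0.208, adjusted p = 0.0483 in edgeR's quasi-likelihood test), and its call was kept without MA-10 replicate 1 and lost without any other library. It was also lost with upper quartile scaling (adjusted p = 0.0508) and with at least 10 counts in every library (adjusted p = 0.0528), both in edgeR's quasi-likelihood test. Xdh, the xanthine dehydrogenase that acts on hypoxanthine, a base PNP releases, did not pass. It had 24.97, 12.4 and 11.5 CPM across the MA-10 replicates and 28.0, 30.3 and 33.1 CPM across those of STARKO1 (log2 fold change 0.89, standard error 0.315, adjusted p = 0.0938 in edgeR's quasi-likelihood test). MA-10 replicate 1 was again the nearest to the STARKO1 libraries. Samhd1, an enzyme that breaks down deoxynucleotides, did not pass and had 62.5, 81.5 and 92.9 CPM across the MA-10 replicates and 125, 101 and 127 CPM across those of STARKO1 (log2 fold change 0.58, standard error 0.203, adjusted p = 0.0941 in edgeR's quasi-likelihood test).

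Of 23 genes for adenosine transport, receptors and ectonucleotidases, 9 were in the table and tested. Of these, 1 fell and 0 rose, where 9.04% of all tested genes were called, and the median log2 fold change was -0.0030. The adenosine receptor genes Adora1, Adora2a, Adora2b and Adora3 were not listed. Enpp2, which encodes autotaxin, a secreted lysophospholipase D of the ectonucleotide pyrophosphatase family, had 59, 27 and 54 counts across the MA-10 replicates and 5, 2 and 3 across those of STARKO1. Its level was 3.38, 2.34 and 4.76 CPM in MA-10 and 0.215, 0.118 and 0.169 CPM in STARKO1 cells. The STARKO1 libraries were near the level of 3 counts. Enpp2 fell by 4.29 on the log2 scale (standard error 0.434, adjusted p = 0.00456 in edgeR's quasi-likelihood test), with a call in all 6 fits that left out a library. Slc29a1, the equilibrative nucleoside transporter, had 87.0 ± 25.5 CPM in MA-10 and 72.1 ± 4.77 CPM in STARKO1 cells (mean ± SD, n = 3 per line).

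S-adenosylhomocysteine hydrolysis is the reaction that releases adenosine from used methyl donors. None of the 3 genes listed under that name, Ahcy, Ahcyl1 and Ahcyl2, had an adjusted p under 0.05 in edgeR's quasi-likelihood test. Nor did any of the 10 tested genes of pyrimidine salvage, where 9.04% of all tested genes did. The counts at an unadjusted p under 0.05 were 0 and 3, where 4493 of all 11939 tested genes had such a p. By the adjusted p and without MA-10 replicate 1 they were 2 and 6, where 65.7% of all tested genes were called. Their median log2 fold changes were 0.27 and 0.25. Uck2, a uridine-cytidine kinase, had 118 ± 5.84 CPM in MA-10 and 148 ± 6.69 CPM in STARKO1 cells (mean ± SD, n = 3 per line). Ahcyl1 had 347 ± 27.9 CPM and 327 ± 11.7 CPM, and Ahcy had 152 ± 79.1 CPM and 229 ± 4.93 CPM. For Ahcy the log2 fold change was 0.59 (standard error 0.356), and it was 1.18 without MA-10 replicate 1.

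**Figure D4:**
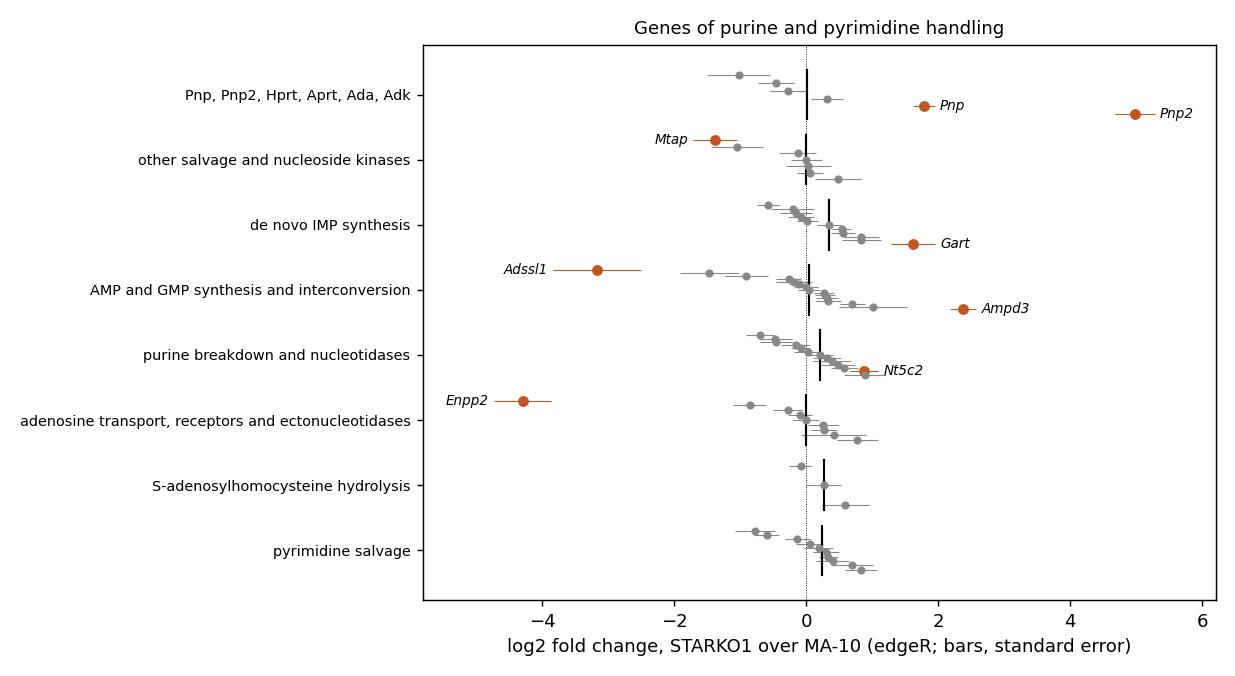
Log2 fold change of each tested gene, STARKO1 over MA-10, with its standard error as a horizontal bar and the median of each list as a vertical line; genes with an adjusted p under 0.05 are orange and named. The 68 genes outside the top row have a median of 0.053, with 3 called higher and 3 called lower.

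The neighborhood of Pnp and Pnp2 was examined for genes that moved with them. Within 250 kb to either side, 15 genes were in the table and 11 were tested. Pnp, Pnp2 and Apex1 were called higher and 0 genes were called lower. The median log2 fold change of the 11 genes, Pnp and Pnp2 included, was 0.23. Since Pnp and Pnp2 were chosen for their values, Apex1 was the 1 call among the other 9 genes, where 9.04% of all tested genes were called. On the whole of chromosome 14, 398 genes were tested, 14 were called higher and 26 lower (10.1%), and the median was -0.15.

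Apex1 (chr14:50924968-50927139, plus strand), which encodes the apurinic endonuclease of base excision repair, lies just upstream of the annotated span of Pnp. It had 37.2, 57.0 and 40.1 CPM across MA-10 replicates 1 to 3 and 107, 109 and 117 CPM across those of STARKO1. The lines did not overlap. It was higher in STARKO1 cells by 1.31 on the log2 scale (standard error 0.204, adjusted p = 0.0162 in edgeR's quasi-likelihood test). The call was kept without MA-10 replicate 1 or without MA-10 replicate 2 and lost in the other 4 fits that left out a library, with log2 fold changes of 1.24 to 1.52 over the 6 fits.

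The genes beside Apex1, Pnp and Pnp2 were closer between the lines. Osgep, which encodes a tRNA-modifying enzyme and starts 75 bases from Apex1 on the opposite strand, had 37.4, 44.5 and 34.96 CPM in MA-10 and 49.6, 48.4 and 48.9 CPM in STARKO1 cells (log2 fold change 0.33, standard error 0.155, adjusted p = 0.164 in edgeR's quasi-likelihood test). Its libraries did not overlap between the lines. Pip4p1, on the minus strand between Apex1 and Pnp and overlapping the end of Apex1, had 20.6 ± 1.65 CPM in MA-10 and 19.8 ± 2.12 CPM in STARKO1 cells (mean ± SD, n = 3 per line). The counting is not stated to use strand, so how it placed reads in the overlap of Apex1 and Pip4p1 is not known. Farther out, the log2 fold changes were -1.09 for Parp2, -1.14 for Rpph1, 1.54 for Rnase4, 0.20 for Ttc5, 0.23 for Tep1 and -0.058 for Gm26782, all with an adjusted p of 0.0774 or more in edgeR's quasi-likelihood test. Without MA-10 replicate 1, Rnase4, Osgep and Tep1 were also called higher and Parp2 and Rpph1 lower, so that 8 of the tested genes in the window were called, where 65.7% of all tested genes were. DESeq2 called Rnase4 and Parp2 besides Apex1, Pnp and Pnp2.

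**Figure D5:**
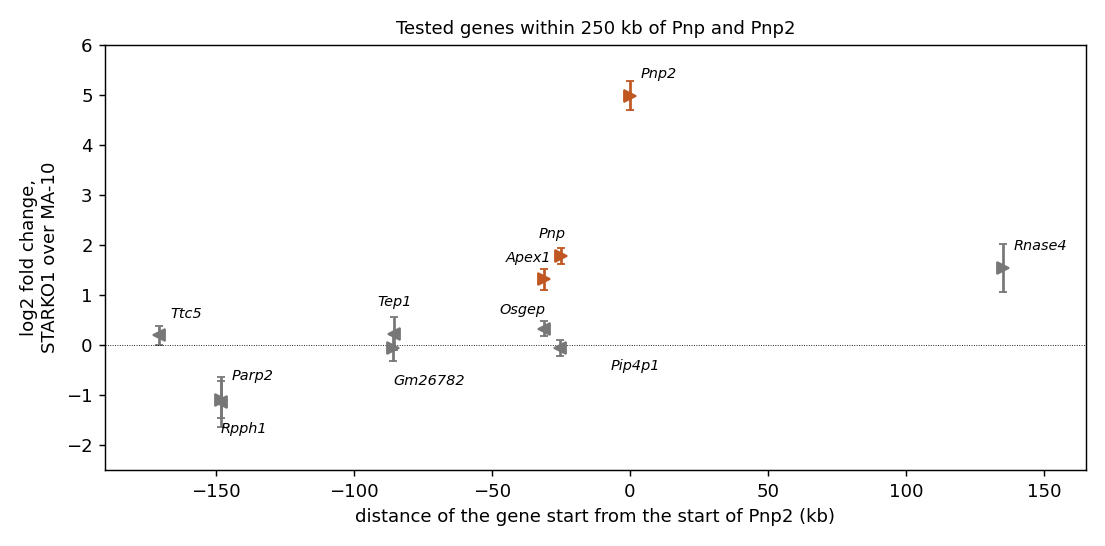
Log2 fold change, STARKO1 over MA-10, with standard errors, of the 11 tested genes within 250 kb of Pnp and Pnp2, plotted by the distance of each gene start from the start of Pnp2 in kb; arrowheads point along the strand, and genes with an adjusted p under 0.05 are orange. Apex1, Pnp and Pnp2 lie at 1.31, 1.78 and 4.98, with Pip4p1 near 0 between Apex1 and Pnp.

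The genes whose levels were most like those of the pair were found by Pearson's r of log2 CPM over the 6 libraries, among genes averaging 5 CPM or more. For Pnp2 these were Chst2, Cct8, Klk1b27, Klk1b24 and Rbmxl1, and for Pnp they were Ube4a, Klk1b24, Nr1h3, Adat1 and Klhdc4, with r of 0.998 to 0.999. The 6 points fall into 2 groups, the cell lines, and share the library depths. A high r therefore records a steady difference between the lines, whatever its size. Cct8 went from 213 ± 0.522 CPM in MA-10 to 287 ± 1.90 CPM in STARKO1 cells (mean ± SD, n = 3 per line). The log2 fold change of Cct8, which did not pass, was 0.44, against 4.98 for Pnp2. At an r of at least 0.99 there were 46 genes for Pnp2 and 49 for Pnp. Chst2, a carbohydrate sulfotransferase, went from 1.60 ± 0.0520 CPM in MA-10 cells to 13.1 ± 1.199 CPM in STARKO1 cells. Ube4a, a ubiquitin chain elongation factor, went from 19.98 ± 0.613 CPM to 37.9 ± 1.71 CPM (SD, n = 3 each). Klk1b27 had 0.174 ± 0.0887 CPM in MA-10 and 14.7 ± 2.90 CPM in STARKO1 cells (mean ± SD, n = 3 per line). Klk1b24 had 0.183 ± 0.0995 CPM and 11.9 ± 1.78 CPM. The minimum of 5 CPM was a mean over all 6 libraries. Chst2, Klk1b27, Klk1b24 and Adat1 averaged less than that in MA-10 cells and met it only through STARKO1. Klk1b24, the only gene on both lists, belongs to a family of similar kallikrein genes, so its counts are uncertain.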

How the data were processed

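Sequencing libraries of total RNA from MA-10 cells (3) and STARKO1 cells (3) were compared for each gene. The authors deposited estimated counts per gene and library, not scaled for depth. The submitters' processing notes name STAR 2.6.1d, Partek and build mm10, and the counting settings and annotation release are not given in the sources used here. A value was more than 0.01 from a whole number in at least 1 library for 31.1% of the genes. Gene coordinates are those of the table, whose stops were 1 base past the GENCODE vM21 ends and were reduced by 1.

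The estimated counts were rounded and fitted in R 4.3.3 with edgeR 4.0.16 (filterByExpr, TMM, quasi-likelihood test, Benjamini-Hochberg adjustment over all tested genes, threshold 0.05). CPM are counts per TMM-scaled library size. The standard error is the log2 fold change divided by the square root of F. For levels per kilobase, the length of 1 GENCODE transcript per gene was used, and 0.5 CPM was added before correlations on the log2 scale. With 14114351 to 19530062 counts per library, counting error is small for abundant genes and large for Pnp2 in MA-10 cells and for Adssl1 and Enpp2 in STARKO1 cells, and the common biological coefficient of variation was 0.291. Nothing in the labels says that the libraries came from separate cultures, so p-values measure the spread between these libraries, which may be technical.

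The salvage genes and the gene lists were chosen with earlier results of these data known. Named were the salvage genes, list genes that passed, the gene of each list with the highest mean CPM, not scaled for length, that did not pass, all tested genes within 250 kb, and the 5 genes most like Pnp2 and Pnp. Xdh and Ahcy were chosen after their values were seen. Alternatives were DESeq2 1.42.0, other scalings and filters, a replicate block, each library left out, a window of 500 kb, and Pnp and Pnp2 summed. Lipid, steroid, immunoblot and qRT-PCR measurements were not analysed here.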

Additional observations from a re-analysis of the deposited data

How the results depend on the processing

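The log2 fold changes of Pnp2 and Pnp, chosen on this contrast, are given across the alternatives as a description. With their rows kept apart they lay between 4.78 and 5.40 and between 1.72 and 2.20, and summed into 1 row the pair had 1.83. Pnp2 failed the filter of 10 counts per library and has no value there. The number of genes called among all genes, 1079, went to 3395 with DESeq2, 330 with scaling by library size alone, 695 with at least 10 counts in every library and 234 with a replicate block. Leaving out any 1 of the 6 libraries moved it by over 1.5 times, to between 89 (without STARKO1 replicate 1) and 7990 (without MA-10 replicate 1). The number of called genes of the purine and pyrimidine lists, 8 with Pnp and Pnp2, went to 21 with DESeq2, 3 with at least 10 counts in every library, 4 with the replicate block, and 4 to 45 when 1 library was left out, the upper value without MA-10 replicate 1. The number near Pnp and Pnp2, 3, went to 5 with DESeq2 and to 2 to 8 when 1 library was left out, the upper value again without MA-10 replicate 1. The share of calls that were higher in STARKO1 cells was 47.5% with TMM, 63.6% with scaling by library size alone and 38.6% with DESeq2. Same-numbered libraries did not deviate together (correlations -0.018, 0.054 and 0.017), so the replicate block rests on a shared number only. With it, Gart, Nt5c2, Mtap, Adssl1 and Apex1 were not called (adjusted p of 0.0672, 0.0874, 0.0958, 0.0805 and 0.0535 in edgeR's quasi-likelihood test).

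Of the salvage genes, the list genes named and the genes near Pnp and Pnp2, those whose direction turned had not passed. Under scaling by total count, which moved the median of all genes by 0.43, the log2 fold change was 0.086 for Hprt, 0.26 for Adk, 0.41 for Paics, 0.48 for Impdh2, 0.23 for Slc29a1, 0.34 for Ahcyl1, 0.45 for Gm26782 and 0.40 for Pip4p1. With upper quartile scaling it was 0.085 for Paics, 0.16 for Impdh2, 0.062 for Ahcyl1, 0.11 for Gm26782 and 0.095 for Pip4p1. For Impdh2 it was 0.013 with DESeq2, 0.058 with no filter, 0.025 with at least 10 counts in every library and 0.0095 with the replicate block. With no filter it was 0.0058 for Gm26782 and 0.0013 for Pip4p1. When 1 library was left out, it ranged from -0.069 to 0.35 for Dck, from -0.14 to 0.051 for Paics, from -0.026 to 0.12 for Impdh2, from -0.15 to 0.013 for Ahcyl1, from -0.049 to 0.74 for Tep1, from -0.19 to 0.081 for Gm26782 and from -0.10 to 0.034 for Pip4p1. The causes were not tested. Depth limits Pnp2 in MA-10 cells, where 1 library was under 3 counts, and Adssl1 and Enpp2 in STARKO1 cells.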
